A study of Mus musculus with 20 samples.

Results

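The SLC25 family comprises the mitochondrial carriers, membrane proteins that move metabolites, nucleotides, phosphate, cofactors and iron across the inner mitochondrial membrane. The genes described here were all those whose symbol begins with Slc25a in the table of estimated counts per gene. There were 48 of them among 35204 genes, 47 protein-coding genes and the pseudogene Slc25a5-ps. Of these, 41 reached 0.5 CPM (read counts scaled to a common library size) in at least 1 mouse and were tested, among 16306 genes tested in all. The other 7 were Slc25a2, Slc25a18, Slc25a21, Slc25a31, Slc25a41, Slc25a54 and Slc25a5-ps, and Slc25a41 and Slc25a54 had no count in any mouse.

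RNA was sequenced from tissue labelled ileum of female C57BL/6 mice, 7 weeks old when the diets began, in 4 groups of 5 that cross a diet without tryptophan (Trp) with antibiotics. Mice were specific pathogen-free (SPF) or treated with ampicillin, vancomycin, gentamycin, metronidazole and neomycin together in the drinking water (ABX). They received a defined amino acid control diet (CD) or the same diet without Trp (TDD) for 3 weeks. The antibiotic water also held sucrose, and the paper does not say whether SPF mice drank it, so sucrose and antibiotics cannot be told apart. The paper reports marked weight loss on TDD in SPF mice and a milder loss with ABX. The part of weight loss in the carrier results was not tested. The groups are called CD, TDD, CD+ABX and TDD+ABX, and every mouse in them ate a purified amino acid diet. A piece of whole gut wall was taken from each mouse, so the counts sum over epithelium, muscle and immune cells, and fewer cells of a type cannot be told apart from less RNA per cell. Total counts per mouse ranged from 36676963 to 58662617, with a median of 47553758. At this depth Slc25a5 held 1186492 counts over the 20 mice, and Slc25a43, the sparsest of the genes tested, held 463.

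A carrier of this family is built from 3 similar repeats, each with a pair of membrane-spanning helices and a conserved signature that begins with proline. Substrate binding opens the carrier alternately to the cytosol and to the matrix. In the gut the family links oxidation of glutamine and fatty acids, citrulline synthesis, haem synthesis and one-carbon metabolism to the cytosol, and a member on peroxisomes carries cofactors. The signature was searched in the coding sequences of the 47 protein-coding genes (GENCODE M21, GRCm38) as codons for proline, any residue, an acidic residue, any 2 residues and a basic residue. In 27 genes it was found 3 times, in 12 genes 2 times, in 5 genes once and in 3 genes not at all. The coding sequences ran from 265 to 677 codons (median 318). In genes with 2 or 3 signatures found, neighbouring ones lay 82 to 222 codons apart (median 98). The widest gap was in Slc25a33, where 2 were found, so a gap can span a repeat without a match. Signatures of 4 genes that the comparisons below turn on are shown 5′ to 3′, with the proline, acidic and basic codons in capitals and the codon at which each begins in its name. The copies differ in the codons between the capitals, and Slc25a33 and Slc25a36, which are paralogs, each held 2 strict matches.
Slc25a45 codon 22: CCAttcGACactgtaAAG
Slc25a45 codon 119: CCTtttGACctcatcAAA
Slc25a45 codon 221: CCTtttGATgtgatcAAG
Slc25a26 codon 26: CCTctgGACaccattAAG
Slc25a26 codon 108: CCTtctGAAgtggttAAG
Slc25a26 codon 199: CCTctgGACgtggctAAG
Slc25a33 codon 31: CCActaGAAgtcattAAG
Slc25a33 codon 253: CCAcacGAGgtcatcAGG
Slc25a36 codon 26: CCActgGAAgttgtcAAA
Slc25a36 codon 246: CCAcacGAAgttgtaAGA

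Promoter windows of 250 bases before the transcription start (RefSeq, GRCm38.p6) were matched for 36 of the 48 genes, in 46 windows. The letters CACGTG, the E-box read the same on both strands, stood in 8 of the 46 windows, of which 2 overlapping windows of Slc25a14 share 1 site. They belong to 7 genes, Slc25a1, Slc25a13, Slc25a14, Slc25a15, Slc25a31, Slc25a33 and Slc25a36. The same letters stood in 6.02% of all 32851 promoter windows of the same length. The median GC content was 57.4% over the 46 windows and 52.4% over all windows, and the shares were not tested against each other. By GENCODE M21 the sites of Slc25a15 and Slc25a33 lie inside the gene rather than before it. The letters TTATGTAA, TGATGNAA and TCAAGGTCA, searched on both strands, stood in 0.819%, 3.45% and 0.387% of all windows and in none of the 46. The stretch before Slc25a36 is shown because this gene differed with ABX on both diets. It lies at chr9:97111158-97111291 on the minus strand, is written 5′ to 3′ towards the gene, and carries CACGTG in capitals.
Slc25a36 upstream: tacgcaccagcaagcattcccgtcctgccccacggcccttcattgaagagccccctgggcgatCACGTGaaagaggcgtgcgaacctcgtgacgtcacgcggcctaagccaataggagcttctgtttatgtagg

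Before the comparisons, the libraries were checked against their labels. Vil1, which encodes the microvillus protein villin, stood at 3679 ± 685 CPM in CD mice (SD, n = 5) and 3619 ± 169 in TDD mice. The distal ileal markers were low without ABX: Fabp6, the ileal bile acid binding protein, was at 1.17 ± 0.969 CPM in CD and 1.40 ± 1.58 in TDD mice, against 41.6 ± 59.4 in CD+ABX and 20.1 ± 13.6 in TDD+ABX mice. Slc10a2, the ileal bile acid transporter, was at 2.36 ± 1.02, 5.89 ± 1.98, 39.5 ± 27.2 and 37.0 ± 16.7 CPM in the same order. Both genes are known as markers of the distal ileum, so their near absence in the SPF mice goes against the label of tissue cut close to the cecum. A difference in the position sampled and an effect of ABX cannot be told apart in the comparisons of ABX-treated with SPF mice. CD mouse 2 stood apart, with the lowest mean correlation with its own group over the tested genes (r = 0.983 on the log2 scale) and the lowest sum of 8 enterocyte markers, 10498 CPM against 15756 to 27837 in the other mice. CD mouse 5 carried 98.5 CPM of 4 exocrine pancreas genes, against 2.93 to 4.71 in the others. Counts are therefore given without each of these mice in the comparisons where the count changed. The 5 mice of a group are treated as separate animals, as each has its own label.

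Levels between genes were compared in TPM, the share of a gene's transcripts among all transcripts after correction for their length. The family summed to 3290 ± 272 TPM in CD mice, 3299 ± 66.2 in TDD mice, 3414 ± 242 in CD+ABX mice and 3749 ± 151 in TDD+ABX mice (SD, n = 5), or 0.329% to 0.375% of all TPM. The TDD+ABX mice, at 3627 to 3996 TPM, lay above all CD mice (up to 3456) and all TDD mice (up to 3364) and overlapped the CD+ABX mice (up to 3811). TPM were not scaled further between libraries. In log2(TPM + 1) values tested with limma, 2618 of 16120 genes were higher and 546 lower with ABX on TDD at an adjusted p under 0.05. In edgeR's test of scaled counts none of the 6 energy nucleotide and phosphate carriers had an unadjusted p under 0.05 there. A change of the family sum was not tested. Slc25a5, which exchanges ADP for ATP in most proliferating cells, was the most abundant member at 1511 ± 196 TPM over the 20 mice and took 40.1% of the family in CD mice and 46.9% in TDD+ABX mice. Slc25a3, the phosphate carrier, followed at 613 ± 46.8 TPM. These 2 genes serve ATP synthesis, and the next member, Slc25a39, averaged 114 TPM.

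The carriers of energy nucleotides and phosphate together held 2256 TPM, of which Slc25a4, the ADP/ATP carrier of muscle, gave 30.3 TPM and Slc25a31, the germ cell form, 0.00439. Carboxylate carriers and those of the malate-aspartate shuttle summed to 427 TPM, led by the citrate exporter Slc25a1 at 112 ± 12.2 TPM. The aspartate/glutamate carriers Slc25a12 and Slc25a13 stood at 9.48 ± 1.46 and 9.14 ± 0.879 TPM. Of the glutamate carriers, Slc25a22 stood at 98.8 ± 23.6 TPM, whereas Slc25a18 had 3 counts over all mice. Slc25a21, an oxodicarboxylate carrier used in lysine and tryptophan breakdown, had 33 counts over all mice and was below the filter. Cofactor, nucleotide, glutathione and iron carriers summed to 425 TPM, led by the glutathione carrier Slc25a39 at 114 ± 9.44 TPM. Its paralog Slc25a40 stood at 4.15 ± 0.329 TPM. The amino acid carriers summed to 140 TPM and were led by Slc25a15, the ornithine/citrulline carrier of the urea and citrulline pathway, at 93.5 ± 12.4 TPM. Slc25a20, the carnitine/acylcarnitine carrier of fatty acid oxidation, stood at 33.2 ± 7.41 TPM. Among the 11 members whose substrate is less certain, Slc25a45 stood at 106 ± 18.9 TPM and the other 10 at 0.222 to 15.2 TPM. The gene count of Slc25a32 was 2 times the sum of its transcripts, so its CPM level is doubled and its fold changes are not.

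**Figure D1:**
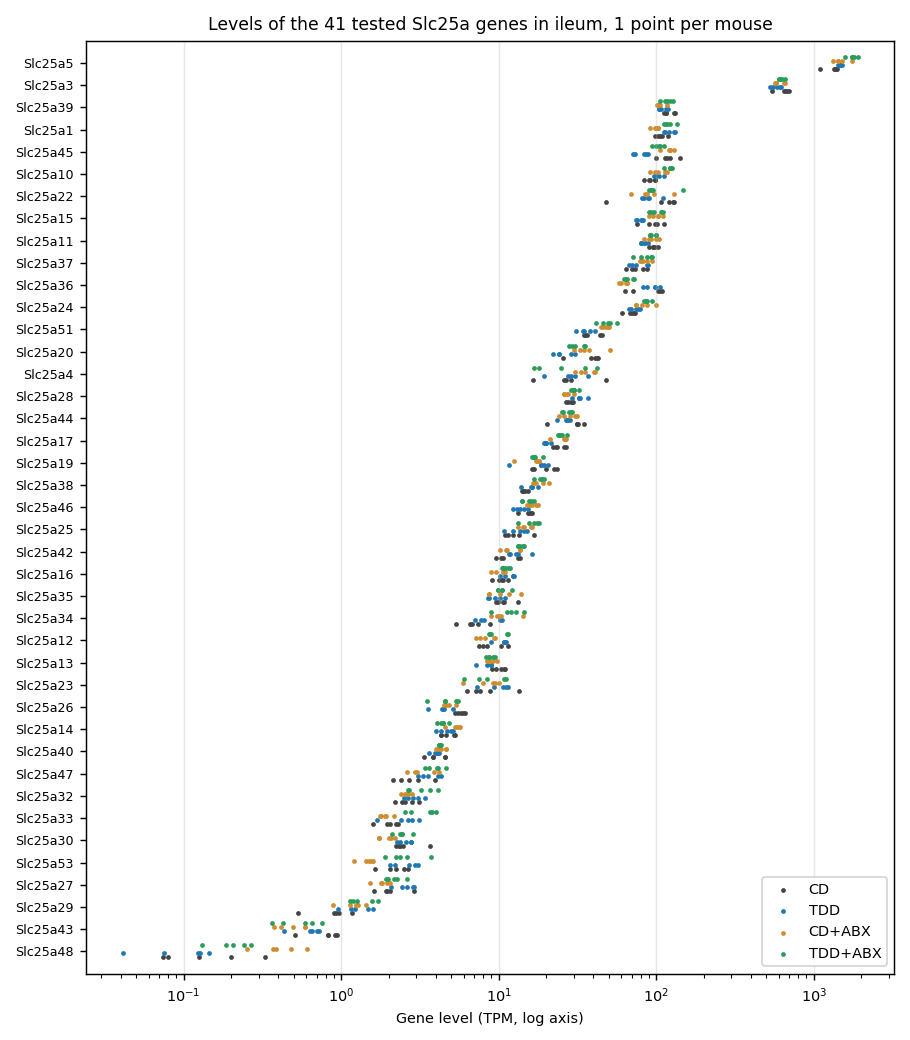
Level of each of the 41 tested Slc25a genes in TPM (log axis), with 1 point per mouse coloured by group and genes ordered by their mean. Slc25a5 and Slc25a3 lie apart at the top, at 1511 and 613 TPM on average, and Slc25a48 lies lowest at 0.222 TPM.

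**Figure D2:**
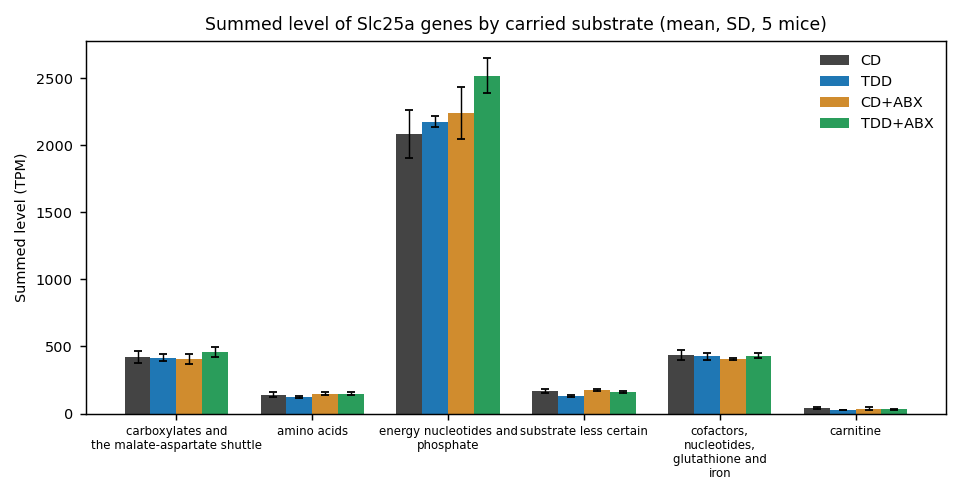
Summed TPM of the members carrying each kind of substrate, as the mean of 5 mice per group with the SD as error bar. The carriers of energy nucleotides and phosphate (2256 TPM over all mice) exceed the carboxylate carriers (427 TPM) and the cofactor, nucleotide, glutathione and iron carriers (425 TPM).

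TDD feeding in SPF mice changed 7 of the 41 carriers, 3 higher and 4 lower, at an adjusted p (q) under 0.05 in edgeR's quasi-likelihood test. Those that fell were Slc25a45, the S-adenosylmethionine carrier Slc25a26, the carnitine/acylcarnitine carrier Slc25a20 and Slc25a17, a peroxisomal carrier of coenzyme A, FAD and NAD. Those that rose were the iron importer Slc25a28, also named mitoferrin-2, Slc25a16, which is linked to coenzyme A uptake, and Slc25a47. No change reached 2-fold, as 1.84% of all genes did. Of all genes tested, 14.4% were called in this comparison (6.7% higher and 7.73% lower), and the share of the carriers was 17.1%. The median log2 fold change was 0.08 over the carriers and 0.01 over all genes. In 4 carriers the groups did not overlap, 2 higher and 2 lower, against 9.58% of all genes (4.68% higher and 4.9% lower), and 19 carriers had an unadjusted p under 0.05, against 28.5% of all genes.

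Slc25a45 (chr19:5877808-5885878, plus strand) stood at 186, 129, 152, 168 and 165 CPM in the 5 CD mice and at 103, 125, 111, 111 and 119 CPM in the TDD mice. Every TDD mouse lay below every CD mouse. The log2 fold change was -0.49 (SE 0.08, q = 0.000767). Slc25a26 (chr6:94500331-94604672, plus strand) stood at 7.55, 6.96, 7.202, 8.17 and 7.75 CPM in CD mice and at 6.55, 5.57, 5.12, 5.28 and 5.18 in TDD mice. These groups did not overlap either, and the log2 fold change was -0.44 (SE 0.09, q = 0.00409). S-adenosylmethionine, the substrate of this carrier, is the methyl donor for mitochondrial RNA and protein methylation. The annotated span of Slc25a26, introns included, overlaps that of Lrig1 on the opposite strand by 144 bases.

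Slc25a28 (chr19:43663801-43674881, minus strand) stood at 30.8, 30.03, 30.4, 29.5 and 30.4 CPM in CD mice and at 43.0, 36.0, 34.7, 33.3 and 35.8 in TDD mice. All TDD mice were above all CD mice, with TDD mouse 1 the highest, and the log2 fold change was 0.27 (SE 0.06, q = 0.00439). Slc25a16 (chr10:62920633-62946498, plus strand) read 26.1, 23.2, 23.6, 25.5 and 21.8 CPM in CD and 27.6, 28.6, 28.5, 25.8 and 29.6 CPM in TDD mice. Only TDD mouse 4 lay within the CD range, and the log2 fold change was 0.22 (SE 0.06, q = 0.0156). Without CD mouse 5 or TDD mouse 3 its q was 0.0696 or 0.0502. A processed pseudogene, Gm16128, overlaps the annotated span of this gene by 626 bases on the same strand. Whether it meets the exons was not examined.

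Slc25a17 (chr15:81318911-81360812, minus strand) measured 25.7, 29.4, 24.7, 28.5 and 30.2 CPM in CD mice and 25.0, 23.0, 24.5, 23.9 and 23.8 CPM in TDD mice. The TDD mice lay close together at the lower end of the CD range or below it, and the log2 fold change was -0.20 (SE 0.06, q = 0.0212). Without CD mouse 5 or TDD mouse 2 its q was 0.0554 or 0.0523. Slc25a47 (chr12:108836046-108856815, plus strand) measured 2.18, 2.63, 1.68, 2.04 and 2.27 CPM in CD mice and 2.71, 3.28, 2.88, 2.53 and 3.09 CPM in TDD mice. The groups overlapped only through CD mouse 2 and TDD mouse 4, and the log2 fold change was 0.43 (SE 0.13, q = 0.0334). In GENCODE M21 this gene begins 162 bases from Slc25a29, a basic amino acid carrier read in the opposite direction. Its RefSeq promoter window lies at chr12:108850879-108851128, inside that span, so the 2 annotations place its start differently. Slc25a20 averaged 48.8 ± 9.72 CPM in CD and 35.1 ± 4.85 CPM in TDD mice (SD, n = 5), a log2 fold change of -0.48 (SE 0.15, q = 0.0358). The call was kept without each of 13 of the 20 mice for Slc25a47 and of 12 for Slc25a20, and the highest q otherwise was 0.0911 and 0.0846.

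By role, 4 of 13 cofactor, nucleotide, glutathione and iron carriers were called, 2 higher and 2 lower, with 2 of 11 members of less certain substrate and the carnitine carrier, against 14.4% of all genes (6.7% higher and 7.73% lower). In the TMM-scaled edgeR fit of all 20 mice none of the 6 carboxylate, 4 amino acid and 6 energy nucleotide and phosphate carriers was called, with 4, 2 and 1 of them at an unadjusted p under 0.05. Upper-quartile scaling called Slc25a1, DESeq2 and limma-voom called Slc25a12 and the basic amino acid carrier Slc25a29, and the TPM values called Slc25a11, Slc25a13 and Slc25a15. Slc25a5 was higher in all 5 TDD mice than in all CD mice, but its log2 fold change of 0.22 (SE 0.10) had q = 0.139. Without CD mouse 2 the count was 13 rather than 7 and included all 7, without CD mouse 5 it was 3, and without TDD mouse 3 it was 4. The genes called in all numbered 3145, 1605 and 1726 in these fits, against 2354 with every mouse. In log2(TPM + 1) values tested with limma, 1 carrier was higher and 7 were lower, where 624 of all 16120 genes were higher and 1636 lower. Markers of other cells moved in the same comparison: 3 of 5 myeloid markers were lower (summed 178 ± 19.4 CPM in CD and 132 ± 34.4 in TDD mice), namely Adgre1, Csf1r and Cd68 but not the most abundant, Lyz2 (q = 0.392), 2 of 3 erythroid markers were lower (27.1 ± 6.48 and 13.5 ± 4.02 CPM), namely Hbb-bs, the most abundant, and Hba-a1. Of 3 plasma cell markers (1795 ± 426 and 2662 ± 670 CPM), Jchain and Mzb1 were higher but not the most abundant, Igha (log2 0.55, q = 0.0707), and none of 8 enterocyte markers was called. Their part in these results was not tested.

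**Figure D3:**
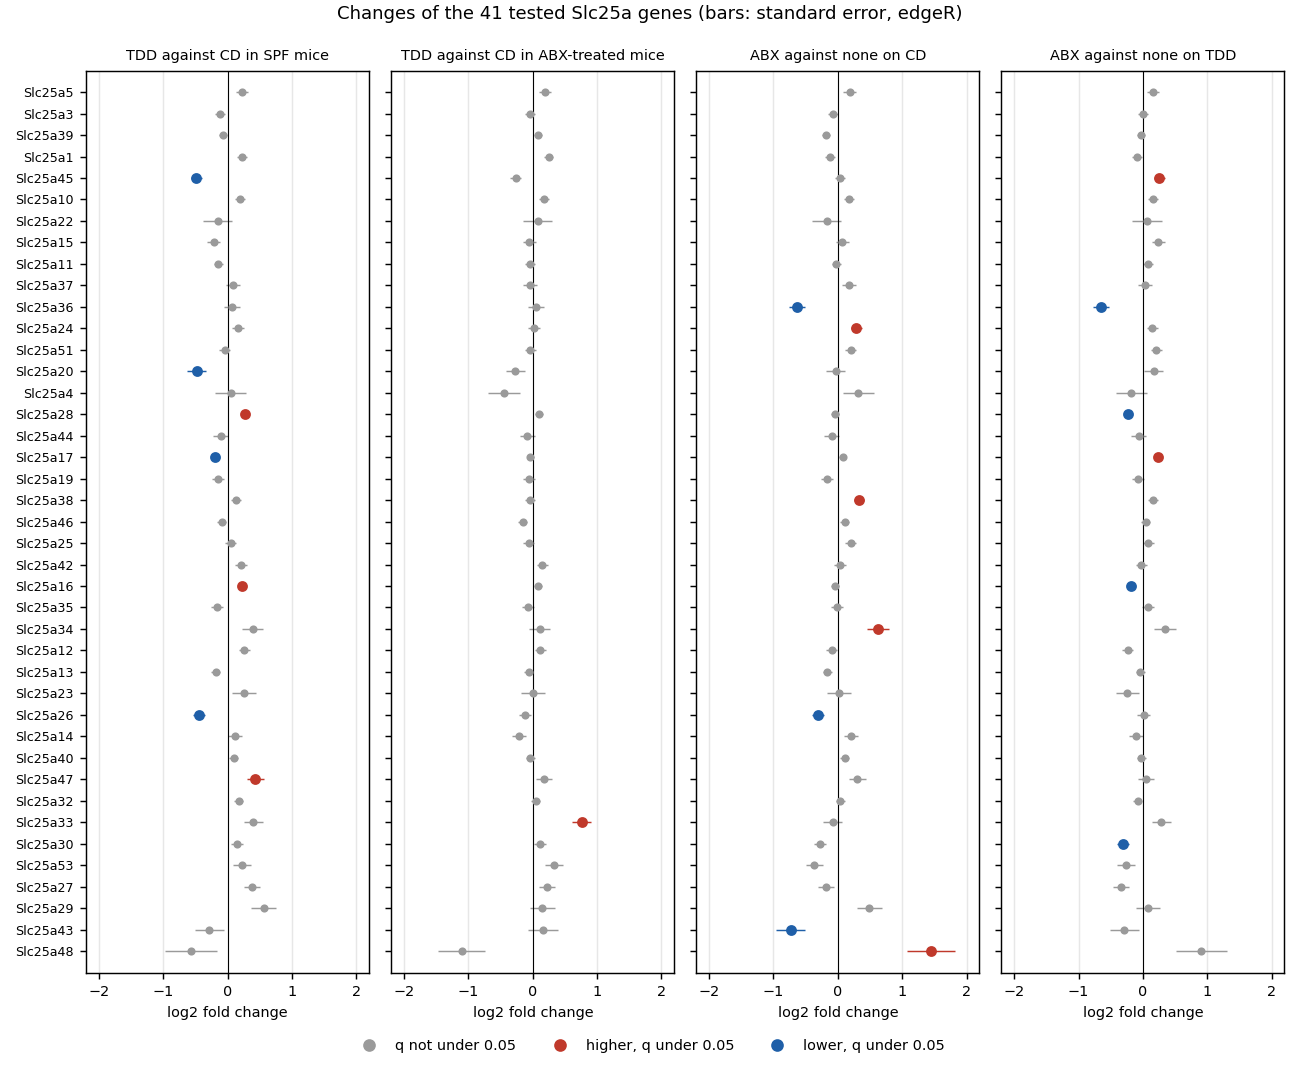
Log2 fold change of the 41 tested Slc25a genes in 4 comparisons, with the standard error from edgeR as bar and genes ordered by mean TPM. Coloured points have q under 0.05: 7, 1, 7 and 6 genes from left to right, and Slc25a48 with ABX on CD is the one beyond 2-fold.

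In ABX-treated mice TDD feeding changed 1 carrier, Slc25a33, which rose. Slc25a33 and its paralog Slc25a36 carry pyrimidine nucleotides into mitochondria, where they serve synthesis of mitochondrial DNA and RNA. Across all genes 1.77% were called in this comparison (0.681% higher and 1.09% lower), with 0.331% at 2-fold or more, and 2.44% of the carriers. At an unadjusted p under 0.05 stood 7 carriers and 14.8% of all genes. Slc25a33 (chr4:149744036-149774277, minus strand) stood at 2.60, 2.52, 2.40, 2.94 and 2.56 CPM in CD+ABX mice and at 3.84, 3.46, 4.90, 4.80 and 5.08 in TDD+ABX mice. All TDD+ABX mice lay above all CD+ABX mice, and the log2 fold change was 0.76 (SE 0.15, q = 0.0138), or 1.69-fold. The antisense gene Gm13068 overlaps the annotated span of Slc25a33, introns included, by 1090 bases.

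In SPF mice the same gene stood at 2.62, 2.91, 2.75, 3.23 and 2.23 CPM on CD and at 4.64, 3.39, 3.65, 2.48 and 3.93 on TDD. Of the TDD mice, 4 were above every CD mouse and 1 was within their range, with a log2 fold change of 0.40 (SE 0.15, q = 0.0829). The paralog Slc25a36 differed little with diet, at 0.05 (SE 0.12, q = 0.885) with ABX and 0.07 (SE 0.12, q = 0.764) without. Slc25a45 was again lower on TDD with ABX, at -0.27 (SE 0.08), but did not pass (q = 0.116). Slc25a48 had groups that did not overlap (CD+ABX 0.623 to 1.66 CPM, TDD+ABX 0.331 to 0.622 CPM) and a log2 fold change of -1.11 (SE 0.36, q = 0.140). Groups that do not overlap were found in 4.78% of all genes here (2.35% higher and 2.43% lower) and in 2 of the 41 carriers. None of the 14 marker lists held a called gene in this comparison. Leaving out CD+ABX mouse 5 gave 2 called carriers and 266 of all genes, against 288 with every mouse, and the log2(TPM + 1) values gave 3 carriers and 218 of all genes. Over all genes, leaving out 1 mouse gave from 105 calls (without CD+ABX mouse 4) to 505 (without CD mouse 2). Slc25a33 was the carrier called in both of these fits.

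ABX treatment on CD changed 7 carriers, 4 higher and 3 lower, among them the pyrimidine nucleotide carrier Slc25a36, which fell. The glycine carrier of haem synthesis Slc25a38, Slc25a48, Slc25a34 and the calcium-regulated ATP-Mg/phosphate carrier Slc25a24 rose, and Slc25a26 and Slc25a43 fell. Of all genes, 12.8% were called (5.35% higher and 7.43% lower), and of the carriers 17.1%. The median log2 fold change was 0.02 over the carriers and -0.00 over all genes. Only Slc25a48 passed 2-fold, a size that 2.3% of all genes reached, and 16 carriers had an unadjusted p under 0.05, against 26.7% of all genes.

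Slc25a36 (chr9:97074961-97111157, minus strand) stood at 268, 158, 244, 258 and 189 CPM in CD mice and at 147, 142, 128, 141 and 160.2 CPM in CD+ABX mice. The groups overlapped only through CD mouse 2 and CD+ABX mouse 5, and the log2 fold change was -0.64 (SE 0.12, q = 0.00256), or 1.56-fold lower. Slc25a38 (chr9:120110374-120124504, plus strand) stood at 16.6, 15.8, 16.3, 18.1 and 17.9 CPM in CD mice and at 18.9, 19.5, 21.4, 20.3 and 26.0 in CD+ABX mice. These groups did not overlap, as in 3 carriers and in 9.74% of all genes (3.86% higher and 5.88% lower), and the log2 fold change was 0.32 (SE 0.08, q = 0.00875). Glycine imported by this carrier is condensed with succinyl-CoA in the first step of haem synthesis.

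Slc25a48 (chr13:56438355-56474239, plus strand) stood at 0.496, 0.791, 0.200, 0.321 and 0.189 CPM in CD mice and at 0.970, 0.623, 0.921, 1.23 and 1.66 in CD+ABX mice. CD mouse 2 was the one control within the CD+ABX range, and the gene was 2.73-fold higher (log2 1.45, SE 0.37, q = 0.0157) on at most 88 counts per mouse. Slc25a34 (chr4:141618824-141623821, minus strand) measured 14.6, 10.1, 13.3, 18.1 and 13.3 CPM in CD mice and 17.6, 19.4, 18.9, 20.6 and 30.4 CPM in CD+ABX mice. CD mouse 4 lay within the range of CD+ABX mice, and CD+ABX mouse 5 lay above the rest. The log2 fold change was 0.62 (SE 0.17, q = 0.0195), and q was 0.063 without CD+ABX mouse 5.

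Slc25a26 was lower in all CD+ABX mice (5.65, 6.11, 6.90, 6.07 and 5.68 CPM) than in all CD mice listed above, with a log2 fold change of -0.31 (SE 0.09, q = 0.0365). Slc25a43 (chrX:36743659-36777202), which lies 18448 bases before Slc25a5, averaged 0.652 ± 0.150 CPM in CD and 0.390 ± 0.0715 CPM in CD+ABX mice, at -0.73 (SE 0.23, q = 0.0389). Slc25a24 averaged 177 ± 17.2 and 217 ± 35.0 CPM, at 0.29 (SE 0.09, q = 0.0422). The call was kept without each of 12 of the 20 mice for Slc25a26, of 13 for Slc25a43 and of 6 for Slc25a24, and the highest q otherwise was 0.0884, 0.0918 and 0.117. The count fell from 7 to 4 without CD mouse 1, CD mouse 3, CD+ABX mouse 4 or CD+ABX mouse 5, was 5 without CD mouse 5 and was 10 without CD mouse 2. Over all genes the calls went from 2083 to 1646, 1445, 1692 and 1560, to 1563 and to 2560 in the same order. Slc25a36, Slc25a38 and Slc25a48 were called whichever mouse was left out. With upper-quartile scaling 4 carriers were higher and 5 lower, where 828 of all genes were higher and 1282 lower. Of the 8 enterocyte markers, 5 were higher with ABX on CD (sum 16895 ± 3878 CPM in CD and 20422 ± 4361 in CD+ABX mice). They were Fabp6 (log2 5.14, SE 1.07, q = 0.00431), Slc10a2 (4.07, SE 0.47, q = 7.59e-05), Fabp2 (1.20, SE 0.18), Mep1a (0.91, SE 0.25) and Cdh17 (0.35, SE 0.09), while the most abundant, Apoa1, was at -0.23 (SE 0.19, q = 0.490). Of 5 T cell markers, led by Cd4, and 5 myeloid markers, 4 each were lower (45.7 ± 22.2 against 17.3 ± 1.93 CPM, and 178 ± 19.4 against 109 ± 6.55). Their part in the carrier results was not tested.

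**Figure D4:**
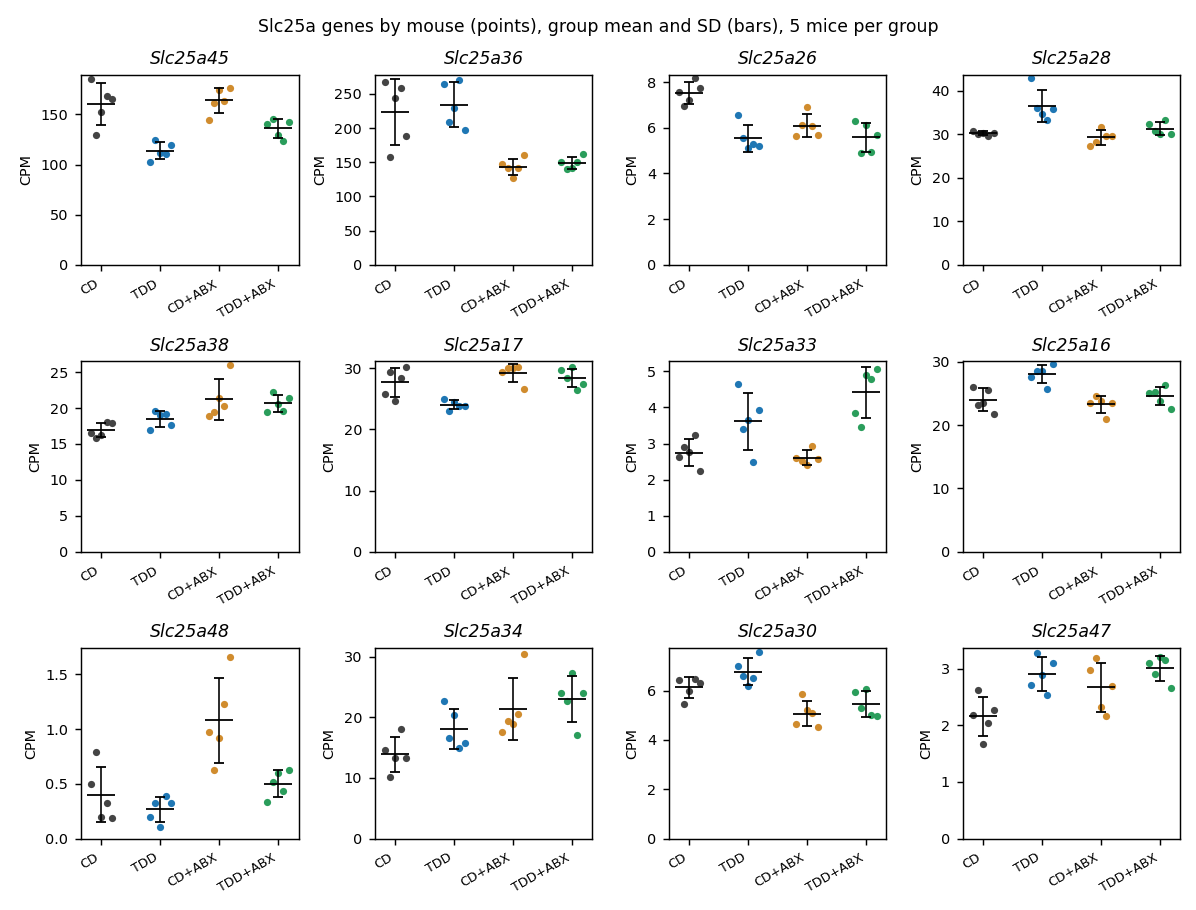
CPM by mouse of the 12 carriers described mouse by mouse, with the group mean and SD as bars and every axis starting at 0. Slc25a36 is lower in both ABX groups, with 128 to 161 CPM, and Slc25a33 is highest in TDD+ABX mice, at 3.46 to 5.08 CPM.

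On TDD, ABX treatment changed 6 carriers, 2 higher and 4 lower. Slc25a36, Slc25a28, Slc25a30 and Slc25a16 fell, and Slc25a17 and Slc25a45 rose. This comparison shares its TDD mice with the diet comparison in SPF mice and its TDD+ABX mice with the diet comparison under ABX, so the values are set side by side. Among all genes 15.5% were called (7.19% higher and 8.3% lower), and 14.6% of the carriers. No carrier passed 2-fold, as 1.67% of all genes did, and 12 had an unadjusted p under 0.05, against 30.6% of all genes. The median log2 fold change was 0.01 over the carriers and -0.03 over all genes.

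Slc25a36 stood at 265, 209, 229, 271 and 197 CPM in TDD mice and at 150.0, 141, 142, 149.8 and 161 in TDD+ABX mice. Every TDD+ABX mouse lay below every TDD mouse, and the log2 fold change was -0.65 (SE 0.12, q = 0.00243), beside -0.64 on CD. The antisense gene Gm16185 overlaps the annotated span of Slc25a36, and the strand setting of the quantification is not given in the sources used here. Reads from any exon bases that they share cannot be told apart. Slc25a17 read 29.6, 28.4, 30.1, 26.5 and 27.5 CPM in TDD+ABX mice, all above the TDD mice, at 0.24 (SE 0.06, q = 0.00978). Slc25a28 read 32.4, 30.7, 30.1, 33.3 and 29.996 CPM in TDD+ABX mice, all below the TDD mice, at -0.22 (SE 0.06, q = 0.0161), and q was 0.0597 without TDD+ABX mouse 3. Across 11 other settings its log2 fold change was -0.24 to -0.11, with q up to 0.193, and the call held in 8. In TPM the groups overlapped, at 29.0 to 37.0 in TDD and 28.6 to 32.6 in TDD+ABX mice. On CD, ABX gave 0.08 (SE 0.06, q = 0.434) for Slc25a17 and -0.05 (SE 0.06, q = 0.694) for Slc25a28.

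Slc25a30 (chr14:75760117-75787037, minus strand) stood at 7.002, 6.58, 6.17, 6.52 and 7.56 CPM in TDD mice and at 5.95, 5.28, 6.08, 5.02 and 4.98 in TDD+ABX mice. These groups did not overlap, as in 4 carriers and in 11% of all genes (5.97% higher and 5.05% lower), and the log2 fold change was -0.31 (SE 0.09, q = 0.0265). Across 11 other settings the log2 fold change was -0.32 to -0.05, with q up to 0.754, and the call held in 6. In TPM the groups overlapped, at 2.27 to 2.78 in TDD and 2.11 to 2.85 in TDD+ABX mice. Slc25a16 read 25.0, 25.3, 23.8, 26.3 and 22.6 CPM in TDD+ABX mice, at -0.19 (SE 0.06, q = 0.0375). Its log2 fold change was -0.20 to -0.06 in the other settings, with q up to 0.585, and the call held in 3 of 11. Slc25a45 measured 140.0, 145, 129.8, 123 and 143 CPM in TDD+ABX mice, and 4 of them lay above all TDD mice, at 0.26 (SE 0.08, q = 0.0428). The call was kept without each of 16 of the 20 mice for Slc25a30, of 9 for Slc25a16 and of 12 for Slc25a45, and the highest q otherwise was 0.0681, 0.116 and 0.102. On CD its ABX groups read 144, 162, 175, 163 and 176 CPM with treatment, within the range of the untreated mice.

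By role, 4 of 13 cofactor, nucleotide, glutathione and iron carriers were called with ABX on TDD, 1 higher and 3 lower, and 2 of 11 members of less certain substrate, against 15.5% of all genes (7.19% higher and 8.3% lower). In the TMM-scaled edgeR fit of all 20 mice no carrier of carboxylates, amino acids, carnitine or energy nucleotides and phosphate passed. Slc25a15 was called with the 2 groups fitted alone and without CD mouse 2, and Slc25a12 without TDD+ABX mouse 4. Of these roles, the log2(TPM + 1) and log2(TPM + 0.1) values both called Slc25a5, Slc25a10, Slc25a11, Slc25a15 and Slc25a24. In log2(TPM + 1) values tested with limma the split was 9 higher and 1 lower, with Slc25a5 among those higher. In the same values 2618 of all 16120 genes were higher and 546 lower, and the median of all genes was 0.05 rather than -0.03. The count was 3 without TDD mouse 5, TDD+ABX mouse 2 or TDD+ABX mouse 3, and 4 without TDD mouse 3, TDD+ABX mouse 1 or TDD+ABX mouse 5, and 7 without CD mouse 2 or TDD+ABX mouse 4. Over all genes, 2525 were called with every mouse, 2067, 1567 and 1520 in the first 3 of these fits, 1796, 1402 and 2909 in the next 3, and 3198 and 2603 in the last 2. Slc25a36 and Slc25a17 were called whichever mouse was left out. With ABX on TDD, 4 of 8 enterocyte markers were higher (sum 17043 ± 1548 CPM in TDD and 21116 ± 1961 in TDD+ABX mice), namely Fabp6 (log2 3.92, SE 1.03, q = 0.0163), Slc10a2 (2.65, SE 0.43, q = 0.00108), Fabp2 and Mep1a but not Apoa1 (q = 0.663), and all 3 plasma cell, 3 of 5 T cell and 2 of 5 myeloid markers were lower. Plasma cell markers summed to 2662 ± 670 CPM in TDD and 1284 ± 144 in TDD+ABX mice. The part of these cells in the carrier results was not tested. Of the other marker lists, crypt, smooth muscle, adipocyte, B cell and neuron and glia markers held no call in any comparison by edgeR. With ABX on CD the 5 B cell markers were at log2 -4.30 to -1.95 (q = 0.0687 to 0.129). They summed to 4.44 to 86.5 CPM within CD and 4.54 to 134 within TDD mice. The sums were 2.32 to 7.10 CPM within CD+ABX and 3.68 to 90.6 within TDD+ABX mice. The part of B cells in the carrier results was not tested. Of Paneth and goblet markers 1 each was called with TDD in SPF mice (higher and lower) and with ABX on TDD (lower and higher), of exocrine pancreas markers 1 was lower with TDD in SPF mice and with ABX on CD, of erythroid markers 1 was higher with ABX on TDD, of plasma cell markers 1 was lower with ABX on CD, and of 4 skeletal muscle markers, with Myh4 at 0 in all mice, 1 was lower with ABX on each diet.

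Whether the effect of the diet differed between SPF and ABX-treated mice was tested directly as an interaction. No carrier was called by edgeR, where 0.0368% of all genes were (0.0184% with a positive and 0.0184% with a negative difference, 0.0245% at 2-fold or more), and DESeq2, which called 134 genes in all, also called no carrier. At an unadjusted p under 0.05 there were 2 carriers, against 8.9% of all genes: Slc25a26 (difference of log2 fold changes 0.32, SE 0.13, q = 0.462) and Slc25a28 (-0.18, SE 0.08, q = 0.540). For Slc25a33 the difference was 0.36 (95% confidence interval -0.05 to 0.78), and for Slc25a45 it was 0.22 (-0.01 to 0.46). So a diet effect seen at one microbial status and not at the other was not shown to differ between them.

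Transcripts are described without a test. More than 1 transcript passed 5% of the gene's TPM in 29 of the 48 genes. In Slc25a37, the iron importer mitoferrin-1, a transcript annotated with a retained intron took 65.9% of the TPM and the coding transcript 29.3%. Slc25a36 was split between the coding transcripts Slc25a36-201 (49.7%) and Slc25a36-202 (17.0%) and a retained-intron form (21.3%). The share of Slc25a36-201 was 50.4% ± 4.96 in CD, 50.9% ± 2.65 in TDD, 48.7% ± 2.26 in CD+ABX and 49.3% ± 1.91 in TDD+ABX mice (SD, n = 5), so the groups overlapped while the gene differed. In Slc25a3 the form Slc25a3-201 took 60.7% and a retained-intron form 22.3%. A transcript marked for nonsense-mediated decay took 58.5% of Slc25a12. The coding transcripts of Slc25a13 and Slc25a51 divided unevenly from mouse to mouse, with Slc25a13-201 at 21.9% to 67.6% of the gene within TDD mice and Slc25a51-201 at 11.2% to 54.2%.

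Genes that work with the carriers were counted from lists chosen with earlier results of these data known. Their shares beside those of all genes are therefore a description and not a test. Of 43 enzymes that make or use the carried substrates, 14 were called with TDD in SPF mice, 7 higher and 7 lower, against 14.4% of all genes. Oat, which interconverts ornithine and glutamate semialdehyde, fell from 1617 ± 50.5 CPM in CD to 871 ± 60.1 CPM in TDD mice, at -0.89 (SE 0.07). Aldh18a1, which makes that aldehyde from glutamate, fell from 356 ± 61.5 to 144 ± 17.1 CPM, at -1.30 (SE 0.13). Slc25a15, which carries ornithine, was at -0.22 (SE 0.10, q = 0.151) in the same comparison. Bcat2 (branched-chain amino acid transaminase) and Got1 (cytosolic aspartate transaminase) rose, at 0.52 (SE 0.08) and 0.68 (SE 0.13), and Cpt2, which acts with the carnitine carrier, fell, at -0.46 (SE 0.10). With TDD under ABX 4 enzymes were called, against 1.77% of all genes, and all 4 were higher: Gclc, Mthfd2, Bcat2 and Shmt2, at 0.63, 1.04, 0.35 and 0.53 (SE 0.12, 0.21, 0.08 and 0.12). ABX changed 9 enzymes on CD (4 higher, 5 lower), where 12.8% of all genes were called, and 14 on TDD (11 higher, 3 lower), where 15.5% of all genes were called (7.19% higher and 8.3% lower). In the interaction 1 enzyme was called, Oat, at 0.62 (SE 0.10, q = 0.0433). Its difference stayed between 0.57 and 0.73 in every alternative, but the call was kept without each of only 6 of the 20 mice (q up to 0.0995) and under 5 of 10 other settings, and lost with RLE scaling (q = 0.0512), limma-voom (q = 0.0621), no filter (q = 0.0783), counts summed from transcripts (q = 0.0514) and the replicate block (q = 0.118).

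Among all genes, the shares called were 14.4% with TDD in SPF mice, 1.77% with TDD under ABX, 12.8% with ABX on CD and 15.5% with ABX on TDD. Of 13 proteins that import carriers into mitochondria, Tomm20 was higher with TDD in SPF mice, at 0.42 (SE 0.07), and none was called with TDD under ABX, where 1 had an unadjusted p under 0.05. With ABX, Tomm40 and Timm22, the channel of the outer membrane and the core of the carrier translocase, rose on CD (0.37, SE 0.10, and 0.24, SE 0.07) and on TDD (0.49, SE 0.10, and 0.36, SE 0.07), and Timm29 rose on TDD. Of 13 markers of mitochondrial mass, Tfam and Vdac3 fell with TDD in SPF mice (-0.23, SE 0.05, and -0.21, SE 0.05). With ABX the chaperonin Hspd1 rose on CD (0.49, SE 0.14), and Hspd1, Vdac3, Phb2 and Phb rose on TDD. None of these 13 was called with TDD under ABX, with 1 at an unadjusted p under 0.05. Of 11 other inner membrane carriers, the pyruvate carrier subunit Mpc1 rose (0.26, SE 0.07) and Letm1 fell (-0.23, SE 0.07) with TDD in SPF mice, none was called with TDD under ABX (3 with an unadjusted p under 0.05), Abcb10 rose (0.26, SE 0.07) and Sfxn3 fell (-0.33, SE 0.10) with ABX on CD, and Sfxn3 fell with ABX on TDD. Of 4 tested family members with other names, Mtch2 fell with TDD in SPF mice (-0.28, SE 0.06), Mtch2 and Ucp2 rose with ABX on TDD (0.24, SE 0.06, and 0.32, SE 0.09), and none was called with ABX on CD or with TDD under ABX, where none had an unadjusted p under 0.05.

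The gut wall holds muscle, so each carrier was compared with the sum of 7 smooth muscle markers over the 20 mice, in 41 relations on the log2 scale with 100000 permutations. The sum ran from 509 CPM in CD mouse 5 to 2638 CPM in CD mouse 2, Myh11 was the most abundant marker, and none of the 7 was called in any comparison. The sum of 4 neuron and glia markers, also cells of the muscle wall, moved with it: 22.6 CPM in CD mouse 2, 6.27 in CD mouse 5, 21.0 in TDD mouse 1 and 8.34 in TDD mouse 4, beside smooth muscle sums of 2638, 509, 2085 and 704 CPM. The part of either cell type in the relations below was not tested. Slc25a4, the ADP/ATP carrier of muscle, followed the sum with Pearson's r = 0.94 and Spearman's rho = 0.91 (permutation p = 1e-05 each, the smallest they can give, adjusted p = 0.00041), and within groups r was 0.95 (adjusted permutation p = 0.00041). Slc25a23, a calcium-regulated ATP-Mg/phosphate carrier, gave r = 0.83 and rho = 0.82 (permutation p = 2e-05 and 6e-05, adjusted p = 0.00041 and 0.00123) and 0.93 within groups (adjusted permutation p = 0.00041). Without the 2 mice farthest from the median, CD mouse 5 and TDD+ABX mouse 3, r was 0.90 for Slc25a4 and 0.77 for Slc25a23. Slc25a12 held within groups alone, at r = 0.75 (adjusted permutation p = 0.0257), with 0.43 over all mice (adjusted permutation p = 0.405). No carrier fell with the sum at an adjusted p under 0.05. Within groups Slc25a13 gave -0.64 and Slc25a5 -0.60 (adjusted permutation p = 0.0681 each), and Slc25a32 gave -0.60 (adjusted permutation p = 0.141). The genes named here were chosen after their values were seen. Neither Slc25a4 nor Slc25a23 was called in a comparison, and the Slc25a4 level ranged from 23.3 to 63.5 CPM within CD mice alone.

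**Figure D5:**
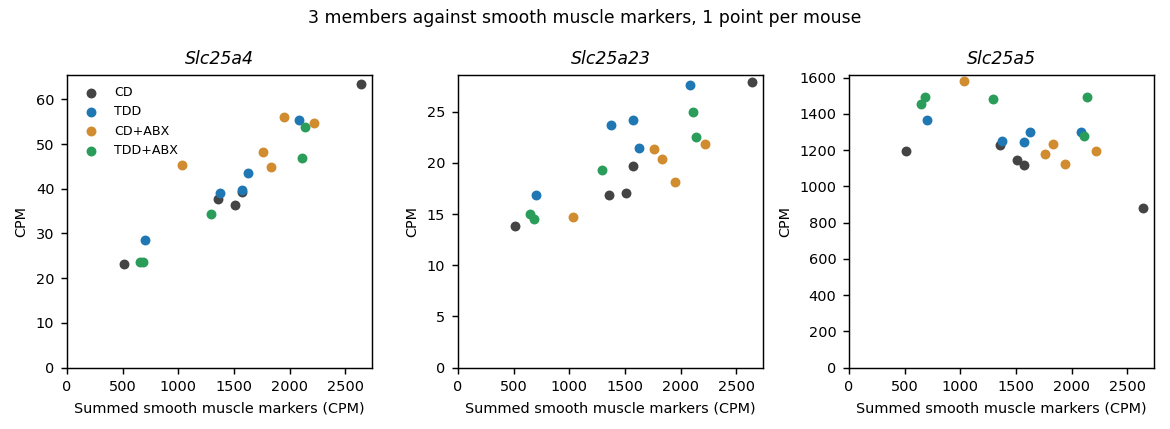
CPM of Slc25a4, Slc25a23 and Slc25a5 against the summed CPM of 7 smooth muscle markers, 1 point per mouse coloured by group, all axes from 0. Slc25a4 and Slc25a23 rise with the smooth muscle sum, which the neuron and glia sum also follows, with r within groups of 0.95 and 0.93.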

How the data were processed

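Libraries from poly-A RNA were read on a NovaSeq instrument. Per the labels and the methods, the authors assigned reads with kallisto 0.44.0 to the mouse transcriptome (GRCm38). The authors deposited estimated counts per gene and, per mouse, estimated counts and TPM per transcript. A strand setting and an annotation release are not given in the sources used here, and coordinates are from GENCODE M21 (GRCm38). Of 12669 abundant genes, 152 held 2 times the sum of their transcripts.

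Estimated counts were rounded, and edgeR 4.0.16 was run on genes that reached 0.5 CPM in any mouse (quasi-likelihood, TMM scaling, R 4.3.3) in 1 fit of 4 groups, with Benjamini-Hochberg adjustment over 16306 genes. A gene was called at q under 0.05. CPM are TMM-scaled. All 20 labelled mice were used, and the study's own displays may rest on fewer. The study's minimum of 2-fold was an alternative, as were DESeq2 1.42.0, limma 3.58.1 on counts or on log2(TPM + 1) and log2(TPM + 0.1), other scalings and filters, a replicate block and leaving out each mouse. The scripts were tested on simulated data. The precision per mouse was set by 36676963 to 58662617 counts, and intervals come from the spread between mice. The carriers and gene lists were chosen with earlier results of these data known. Every called carrier was named, values by mouse were given for the 12 with the lowest q (at most 5 from 1 comparison), with the most abundant member of each role, and at most 5 genes with the lowest q of each related list where numbers were given. The 14 marker lists covered enterocyte, crypt, Paneth, goblet, smooth and skeletal muscle, adipocyte, B, plasma, T and myeloid cells, neurons and glia, exocrine pancreas and erythroid cells.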

Additional observations from a re-analysis of the deposited data

Results flagged for a closer look

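Of 76 groups of 5 mice tested for the named carriers, 7 held a mouse far from the other 4 by Dixon's test, and chance gives about 1 in 20 such groups. CD+ABX mouse 5, which had the highest enterocyte marker sum (27837 CPM), gave 3 of them: Slc25a5 at 1582 CPM (the others 1122 to 1236), Slc25a34 at 30.4 CPM (17.6 to 20.6) and Slc25a17 at 26.6 CPM (29.4 to 30.2). TDD mouse 1 was the highest of its group for Slc25a28 at 43.0 CPM (33.3 to 36.0) and Slc25a39 at 143.5 CPM (119 to 125). CD mouse 2, with the lowest enterocyte marker sum (10498 CPM), was the lowest of its group for Slc25a20 at 32.0 CPM (48.9 to 55.2). TDD+ABX mouse 4 was the lowest of its group for Slc25a5 at 1276 CPM (1457 to 1495). The causes were not tested.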

How the results depend on the processing

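The 21 carrier calls were recomputed under the other settings and without each of 20 mice, 672 values in all. None changed direction, 539 kept the call and 133 lost it, and 9 of the 21 calls held whichever mouse was left out. The called carriers with TDD in SPF mice numbered 7, and 3 with the 2 groups fitted alone and 0 with the 2-fold rule. All genes called in these fits numbered 2354 of 16306, 1407 of 16146 and 300 of 16306. With TDD under ABX there was 1, and 3 in log2(TPM + 1) and 3 in log2(TPM + 0.1) values and 0 with the 2-fold rule. The same settings called 288, 218, 216 and 54 of all genes. With ABX on CD there were 7, and 4 without a filter, 4 with the 2 groups fitted alone and 1 with the 2-fold rule. Over all genes these were 2083 of 16306, 1661 of 25739, 1465 of 16079 and 375 of 16306. With ABX on TDD there were 6, and 10 in log2(TPM + 1) and 10 in log2(TPM + 0.1) values and 0 with the 2-fold rule. Calls over all genes there were 2525, 3164, 3137 and 272. The causes of these shifts were not tested.

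Leaving out 1 mouse gave 3 to 13 called carriers with TDD in SPF mice, 1 to 2 with TDD under ABX, 4 to 10 with ABX on CD, 3 to 7 with ABX on TDD and 0 to 0 in the interaction. Over all genes these fits called 1605 to 3145, 105 to 505, 1445 to 2560, 1402 to 3198 and 0 to 33. With the replicate number as a block, the counts were 5, 1, 4, 3 and 0 in the same order. The block called 1820, 119, 1655, 2047 and 0 of all genes, against 2354, 288, 2083, 2525 and 6 without it. The labels give no pairing of mice by number. Over 30 pairs with the same number the deviations from the group means correlated at -0.355 to 0.248 (median -0.03), and 5 pairs exceeded 0.1. Such correlations cannot exclude a cage or batch shared by a number. Over all genes the interaction called 6, against 134 by DESeq2 and 0 by limma-voom. Depth was lowest for Slc25a43 and Slc25a48, with 463 and 530 counts over all mice.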
